A study of Homo sapiens with 6 samples.

Results

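The mRNAs described here encode the cytosolic heat shock proteins of the HSP90 family (HSP90AA1, HSP90AB1), the HSP70 family (HSPA1A, HSPA1B, HSPA8) and the HSP110 family (HSPA4, HSPA4L, HSPH1), together with the mitochondrial chaperonin HSP60 (HSPD1) and its partner HSP10 (HSPE1). They were chosen by gene name, and all 10 were found among the 58302 genes of both deposited tables. RNA immunoprecipitation followed by sequencing (RIP-seq) recovers the RNA that comes down with a protein on antibody-coated beads, and it was applied to HepG2, a human hepatocellular carcinoma line. PABPC4 RIP was made from HepG2 cells that overexpressed PABPC4, with a Proteintech antibody against that protein (2 libraries). PABPC1 RIP was made from HepG2 cells that overexpressed PABPC1, with a Proteintech antibody against PABPC1 (2 libraries). The controls were 2 rabbit IgG immunoprecipitations, 1 from each overexpressing population. Both deposited comparisons use these 2 IgG libraries together, so the control of each RIP comes in part from cells that overexpressed the other protein, and which recovered IgG library came from which cells is not known here. Antibody and overexpressed protein changed together, so they cannot be told apart in a comparison of PABPC4 RIP with PABPC1 RIP, and no library of input RNA was used here.

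Cytoplasmic poly(A)-binding proteins coat the poly(A) tail of mRNAs and act in their translation and turnover. PABPC1 is the abundant member and PABPC4 a less abundant relative. HSP90 and HSP70 are ATP-driven chaperones that fold and mature client proteins, HSP110 proteins release ADP from HSP70, and HSP60 with HSP10 forms the folding chamber of the mitochondrial matrix. Many of these genes are switched on by the heat shock factor HSF1 through heat shock elements, which are alternating repeats of nGAAn units.

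The heat shock element is the sequence feature for which these genes are known, so the member promoters that hold it are shown. The letters searched were GAANNTTCNNGAA and TTCNNGAANNTTC, the same element read on either strand, in the 250 bases before each RefSeq transcript start (GRCh38.p14). A gene can have several such starts and so several windows. The element was found in 155 of 35116 such windows (0.441%), and in the windows of 152 of 27305 genes (0.557%). Of the 10 members, 4 had it in 1 of their windows: HSP90AA1, HSP90AB1, HSPA8 and HSPD1. Each of these 4 starts lies inside the gene's full span, downstream of its outermost end. Capitals mark the matches, and each stretch is written 5′ to 3′ on the gene's own strand. HSP90AA1 held 1 match that began 88 bases before the transcript start at position 102087044 (chr14:102087090-102087162, minus strand).
HSP90AA1: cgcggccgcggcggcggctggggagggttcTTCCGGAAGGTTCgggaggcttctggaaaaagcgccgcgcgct
HSP90AB1 held 2 matches, which began 165 and 112 bases before the transcript start at position 44247943 (chr6:44247748-44247873, plus strand).
HSP90AB1: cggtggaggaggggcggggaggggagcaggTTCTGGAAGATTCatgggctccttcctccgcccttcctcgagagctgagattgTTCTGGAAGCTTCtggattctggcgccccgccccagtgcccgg
HSPA8 held 2 matches, 230 and 55 bases before the transcript start at position 123062136 (chr11:123062149-123062386, minus strand).
HSPA8: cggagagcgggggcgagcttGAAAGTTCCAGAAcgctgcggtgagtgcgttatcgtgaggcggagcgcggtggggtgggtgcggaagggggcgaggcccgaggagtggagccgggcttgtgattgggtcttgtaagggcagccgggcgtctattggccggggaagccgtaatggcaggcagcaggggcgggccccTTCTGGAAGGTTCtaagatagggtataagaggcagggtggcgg
HSPD1 held 2 overlapping matches, 245 and 240 bases before the transcript start at position 197499840 (chr2:197500038-197500090, minus strand).
HSPD1: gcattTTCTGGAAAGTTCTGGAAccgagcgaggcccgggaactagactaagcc
A match is a description of the letters in a window, and RIP-seq measures no promoter. In the other 6 members these letters were in none of their windows, which says nothing about HSF1 at those genes.

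Whole reads per library were recovered from the deposited values, and libraries are called A and B within each antibody because the recovery does not show which is replicate 1 or 2. The PABPC4 libraries held 850190 and 841327 reads, the PABPC1 libraries 289217 and 277552, and the IgG libraries 133030 and 94235. Mitochondrial rRNA took 15.8% and 16.8% of PABPC4 reads and 41.0% and 35.5% of PABPC1 reads, against 56.5% and 54.4% of IgG reads. A nuclear mRNA that keeps its place among nuclear mRNAs therefore has a fold over IgG above 1 when scaled by library totals. Scaling by nuclear-encoded reads or by the median of ratios asks instead whether an mRNA stands out among the others. A call that ends under such a scaling does not show that the mRNA was level with IgG as a share of the library. Among genes that summed to 20 reads or more, the median fold was 2.05 for PABPC4 (8797 genes) and 1.48 for PABPC1 (4511 genes). All 8 hepatocyte markers examined had reads, and ALB had 2314, 710 and 138 reads with PABPC4, PABPC1 and IgG. TTR, the least sampled of them, had only 3, 2 and 0. The 6 blood markers, globins among them, summed to 0.0702% and 0.0559% of PABPC4 reads and 0.125% and 0.139% of PABPC1 reads, against 0.353% and 0.365% of IgG reads. Among the 4 fibroblast markers the sums were 0.00212% and 0.00143% with PABPC4 and 0.00449% and 0.00432% with PABPC1, against 0.0203% and 0.018% with IgG. The part of these RNAs in the results below was not tested.

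The 10 mRNAs made up 0.807% and 0.741% of PABPC4 reads and 0.408% and 0.437% of PABPC1 reads, against 0.253% and 0.280% of IgG reads. The 3 pairs of libraries did not overlap. Counted over reads of nuclear-encoded genes alone, the shares were closer, at 0.997% and 0.932% with PABPC4 and 0.747% and 0.726% with PABPC1, against 0.632% and 0.666% with IgG, and the pairs again did not overlap. HSP90AA1 and HSP90AB1 supplied 10782 of the 13101 member reads in the PABPC4 libraries.

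**Figure D1:**
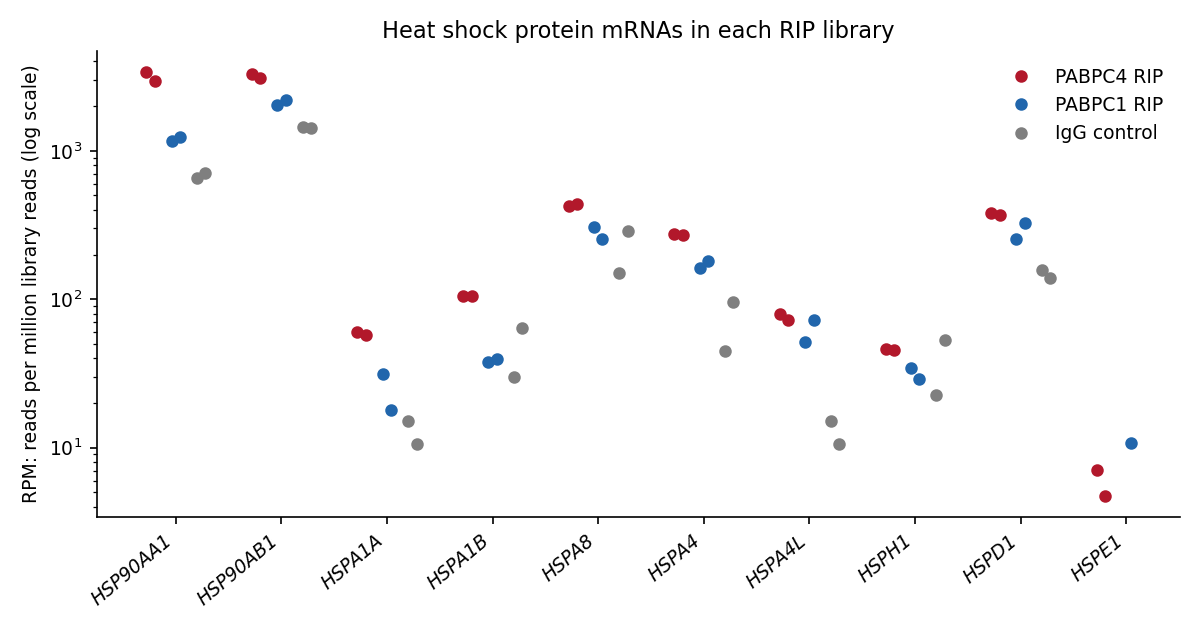
RPM (reads per 1000000 library reads, log scale) of the 10 mRNAs in each library, with 1 point per library for PABPC4 RIP (red), PABPC1 RIP (blue) and IgG (grey). HSP90AA1 and HSP90AB1 stand above the other members with every antibody, and 3 libraries with 0 HSPE1 reads have no point.

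Levels per length were ranked as RPM per kilobase of exon (RPKM), with the exon length that the deposited values imply. With PABPC4 the order was HSP90AB1 (mean RPKM 1072), HSP90AA1 (605), HSPA8 (88.9), HSPD1 (88.6), HSPA4 (52.8), HSPA1B (42.0), HSPA1A (23.6), HSPA4L (6.56), HSPH1 (5.43) and HSPE1 (2.99). The PABPC4 libraries of HSPA8 and HSPD1 overlapped, and no other neighbours did. With PABPC1, HSP90AB1 (mean RPKM 712) and HSP90AA1 (229) again led, and HSPD1 (68.3) and HSPA8 (58.1) overlapped. HSPE1 (2.73) spanned the PABPC1 levels of HSPH1 (3.78) and part of those of HSPA4L (5.33). With IgG the leading pair had mean RPKM 481 for HSP90AB1 and 130 for HSP90AA1, and the overlapping neighbours were HSPA8 with HSPD1, HSPA1B with HSPA4, and HSPA1A with HSPH1.

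HSP90AA1 encodes the inducible cytosolic HSP90, HSP90 alpha, at chr14:102080742-102139749. It had 3398 and 2955 RPM (reads per 1000000 reads of the library) in the PABPC4 libraries and 1169 and 1232 in the PABPC1 libraries, against 654 and 711 in the IgG libraries. The PABPC4 libraries were the highest, and none of the 3 pairs overlapped. From 5375 reads with PABPC4 against 154 with IgG the fold of summed reads was 4.69 (exact 95% counting interval 3.99 to 5.54), and the authors' deposited table lists 4.65-fold at an adjusted p of 2.3e-93. PABPC1 gave 680 reads and a fold of 1.77 (1.48 to 2.12). Scaled by the reads of nuclear-encoded genes, the folds were 2.4 with PABPC4 and 1.27 with PABPC1. The PABPC4 call held under that scaling, and the PABPC1 call did not (chi-square test, adjusted p = 0.56). Without any 1 of the libraries, the chi-square calls of HSP90AA1 with both antibodies were kept.

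HSP90AB1 encodes the constitutive HSP90 beta, at chr6:44246194-44253883. It had 3299 and 3093 RPM with PABPC4 and 2030 and 2212 with PABPC1, against 1436 and 1433 with IgG. The groups were again in 3 separate ranges, but nearer to each other than those of HSP90AA1. The authors' deposited table lists it at 2.23-fold with PABPC4 (adjusted p = 3.4e-44) and 1.48-fold with PABPC1 (adjusted p = 1.9e-07). By nuclear-encoded reads the folds were 1.14 with PABPC4 and 1.06 with PABPC1, and both calls ended (chi-square test, adjusted p = 0.42 and 1).

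A ratio of the HSP90 pair within 1 library does not depend on the library's total. HSP90AA1 supplied 50.7% and 48.9% of the pair's reads in the PABPC4 libraries and 36.5% and 35.8% in the PABPC1 libraries, against 31.3% and 33.2% in the IgG libraries. Over summed reads the share was 49.9% with PABPC4 (exact Clopper-Pearson 95% interval 48.9% to 50.8%), 36.2% with PABPC1 (34.0% to 38.4%) and 32.1% with IgG (27.9% to 36.5%). The PABPC4 interval lay above the others, while those of PABPC1 and IgG overlapped. With 2 libraries against 2, an exact permutation test cannot go below p = 0.333, so no test over libraries was made of this share. The intervals cover counting error only.

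**Figure D2:**
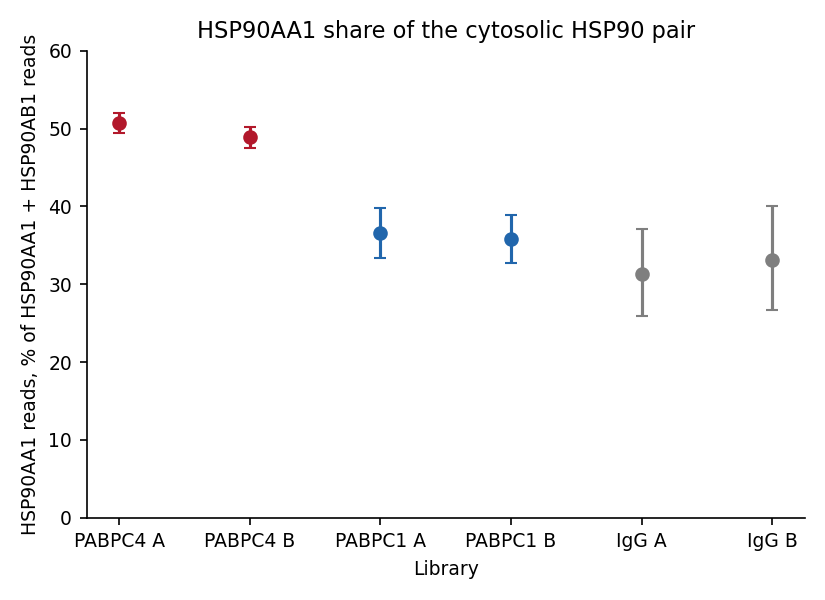
HSP90AA1 reads as a percentage of HSP90AA1 plus HSP90AB1 reads in each library, with exact Clopper-Pearson 95% intervals as bars. The PABPC4 libraries sit at 50.7% and 48.9%, above the PABPC1 libraries (36.5% and 35.8%) and the IgG libraries (31.3% and 33.2%).

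HSPA8 encodes the constitutive HSP70, HSC70, at chr11:123057489-123062462. It had 422 and 440 RPM with PABPC4 and 308 and 256 with PABPC1, against 150 and 287 with IgG. By library totals the PABPC4 libraries were above all others, and PABPC1 and IgG libraries overlapped. Scaled by nuclear-encoded reads, the PABPC4 levels (521 and 553) lay within the ranges of PABPC1 (564 and 425) and IgG (376 and 681). The authors' deposited table lists 1.97-fold with PABPC4 (adjusted p = 3.9e-05) and 1.29-fold with PABPC1 (adjusted p = 0.86). The PABPC4 call ended without IgG library A (1.5-fold, chi-square test, adjusted p = 0.68) and with nuclear-encoded reads as the scale (1.07-fold, adjusted p = 1).

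HSPA1A and HSPA1B encode the stress-inducible HSP70 from near-identical copies that lie 9795 bases apart on chromosome 6, at chr6:31815543-31817942 and chr6:31827738-31830254. Reads of the copies may have been split between them in the authors' counting, so their separate values are uncertain. HSPA1A had 60 and 57.1 RPM with PABPC4 and 31.1 and 18.0 with PABPC1, against 15.0 and 10.6 with IgG. HSPA1B had 106 and 106 with PABPC4 and 38.0 and 39.6 with PABPC1, against 30.1 and 63.7 with IgG. By library totals the PABPC4 libraries were the highest in both genes, and the PABPC1 libraries of HSPA1B lay within the range of IgG. Scaled by nuclear-encoded reads, the PABPC4 libraries stayed highest for HSPA1A. For HSPA1B on that scale, IgG library B (151) was above the PABPC4 libraries (131 and 133). Summed over both copies, 278 reads with PABPC4 against 13 with IgG gave a ratio of 2.87 (95% counting interval 1.65 to 5.46), and 36 reads with PABPC1 gave 1.11 (0.575 to 2.28). Neither copy passed in the authors' deposited table, with adjusted p of 0.10 for HSPA1A and 0.095 for HSPA1B with PABPC4, and 1 for each with PABPC1. By Fisher's exact test on the same summed reads, both passed with PABPC4 (adjusted p = 0.04 for HSPA1A and 0.043 for HSPA1B). Without IgG library B the HSPA1B fold with PABPC4 was 3.52, and without IgG library A 1.66. By nuclear-encoded reads the PABPC4 folds were 2.27 for HSPA1A and 1.23 for HSPA1B. The inducible copies made up 28.2% and 27.0% of HSPA1A, HSPA1B and HSPA8 reads with PABPC4 and 18.3% and 18.4% with PABPC1, against 23.1% and 20.6% with IgG. Over summed reads this share was 27.6% with PABPC4 (exact 95% counting interval 24.9% to 30.5%) and 18.4% with PABPC1 (13.2% to 24.5%). The IgG share was 21.7% (12.1% to 34.2%), from 60 reads, and its interval overlapped both others.

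The HSP110 proteins are nucleotide exchange factors of HSP70. HSPA4 (chr5:133052013-133106449) had 275 and 269 RPM with PABPC4 and 163 and 180 with PABPC1, against 45.1 and 95.5 with IgG. The 3 ranges did not overlap, although the IgG libraries held only 15 HSPA4 reads in all. The authors' deposited table lists HSPA4 at 3.87-fold with PABPC4 (adjusted p = 5.2e-07) and 2.44-fold with PABPC1 (adjusted p = 0.039). The PABPC4 fold was 6.03 without IgG library B, where the call was kept (chi-square test, adjusted p = 8.2e-05). The PABPC4 call ended without IgG library A (2.85-fold, chi-square test, adjusted p = 0.063) and by nuclear-encoded reads (2.11-fold, adjusted p = 0.14). The PABPC1 call ended without PABPC1 library B (2.46-fold), IgG library A (1.79-fold) or IgG library B (3.8-fold; chi-square test, adjusted p from 0.11 to 1), and by nuclear-encoded reads (1.86-fold, adjusted p = 0.93).

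HSPA4L (chr4:127781796-127840733), a relative of HSPA4, had 80.0 and 72.5 RPM with PABPC4 and 51.9 and 72.1 with PABPC1, against 15.0 and 10.6 with IgG. Both RIPs were above IgG, which held 3 HSPA4L reads, and the lower PABPC4 library all but met the higher PABPC1 library. Summed reads gave 5.78-fold with PABPC4 (95% counting interval 1.93 to 28.4) and 4.68-fold with PABPC1 (1.47 to 23.8). In the authors' deposited table HSPA4L passed with PABPC4 (adjusted p = 0.02) and not with PABPC1 (adjusted p = 0.27). The PABPC4 call ended when either IgG library was left out (7.19-fold without A, adjusted p = 0.60, and 5.07-fold without B, adjusted p = 0.28, chi-square test), and by nuclear-encoded reads (2.96-fold, adjusted p = 0.71).

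HSPH1 (chr13:31134973-31162388), which encodes HSP105, had 45.9 and 45.2 RPM with PABPC4 and 34.6 and 28.8 with PABPC1, against 22.6 and 53.1 with IgG. The IgG libraries spanned both RIPs. Its folds were 1.29 with PABPC4 (95% counting interval 0.624 to 3.10) and 0.902 with PABPC1 (0.373 to 2.4), and the authors' deposited table has an adjusted p of 1 for both. By nuclear-encoded reads its folds were 0.662 with PABPC4 and 0.646 with PABPC1. HSPA4 supplied 85.7% of HSPA4 and HSPH1 reads with PABPC4 (82.4% to 88.5%) and 84.3% with PABPC1 (76.4% to 90.5%), against 65.2% with IgG (42.7% to 83.6%). The IgG share rested on 23 reads, and its interval overlapped both others.

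HSPD1, the mitochondrial HSP60, lies head to head with HSPE1, with 104 bases between the outermost starts of the genes. HSPD1 (chr2:197486584-197500274) had 380 and 372 RPM with PABPC4 and 256 and 324 with PABPC1, against 158 and 138 with IgG. By library totals all 3 ranges were separate. Scaled by nuclear-encoded reads, the PABPC4 levels (469.0 and 467.6) overlapped those of PABPC1 (468.6 and 538.5). Both RIPs stayed above IgG (394.8 and 327.8) on that scale. The authors' deposited table lists 2.54-fold with PABPC4 (adjusted p = 4.9e-06) and 1.96-fold with PABPC1 (adjusted p = 0.036). The PABPC1 call ended on leaving out PABPC1 library B or either of the IgG libraries (chi-square test, adjusted p from 0.41 to 0.75). By nuclear-encoded reads the folds were 1.29 with PABPC4 and 1.39 with PABPC1, and both calls ended (adjusted p = 1 each).

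HSPE1, the HSP10 of the same chaperonin (chr2:197500379-197503449), was barely sampled. It had 6 and 4 reads in the PABPC4 libraries and 0 and 3 in the PABPC1 libraries, against 0 and 0 in the IgG libraries. A floor of 3 reads over the IgG libraries stands above the PABPC4 level, so no fold is given, and its listed fold rests on the constant that the authors' deposited values carry in the IgG mean. HSPE1 supplied 1.55% of HSPE1 and HSPD1 reads with PABPC4 (exact 95% interval 0.745% to 2.83%) and 1.80% with PABPC1 (0.372% to 5.16%). Its pseudogenes, with 26 in the tables and 6 with a read, held 23, 3 and 1 reads with PABPC4, PABPC1 and IgG, more than HSPE1 itself with PABPC4. The readthrough gene HSPE1-MOB4, which starts at the same base as HSPE1, had 0 rows with a p-value in either table, and MOB4 had 7, 8 and 0 reads with PABPC4, PABPC1 and IgG. Whether reads of HSPE1 were counted at the pseudogenes, or left uncounted where genes overlap, was not tested. Pseudogene reads were few beside the parent gene for HSP90AA1 (60, 5 and 0), HSP90AB1 (18, 4 and 0), HSPA8 (6, 1 and 0) and HSPD1 (32, 13 and 1).

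Against IgG, the authors' deposited tables list 6 of the 10 mRNAs higher with PABPC4 (HSP90AA1, HSP90AB1, HSPA8, HSPA4, HSPA4L and HSPD1), where 5.54% of all 21455 genes with a p-value were listed higher. With PABPC1, 4 of 10 were listed higher (HSP90AA1, HSP90AB1, HSPA4 and HSPD1), where 1.34% of 17565 genes were. No member was listed lower with either antibody, with 0.9% of all genes lower for PABPC4 and 0.194% for PABPC1. Among genes with 20 or more summed reads, which all members but HSPE1 reached with PABPC4, the listed shares were 13.5% with PABPC4 and 5.21% with PABPC1. The median deposited fold of the 9 members with an IgG read was 2.54 with PABPC4 and 1.76 with PABPC1. Over all genes that summed to 20 reads or more, the median fold of summed reads, a slightly different measure, was 2.05 and 1.48. HSPA1A, with 14 PABPC1 and 3 IgG reads, did not reach that filter with PABPC1. Over all genes with a p-value, the median deposited folds were 3.40 and 1.67. Many of these genes have no IgG read and a fold that rests on the authors' added constant.

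These p-values cover counting error only. In the limma voom fit, which uses the spread between libraries and scales by the median of ratios, 1 of the 9 fitted members was higher with PABPC4, and 1.69% of the 7987 genes were. This was HSP90AA1, at a log2 fold of 1.27 (SE 0.17, adjusted p = 2e-06, 2 libraries each, limma voom). With PABPC1 no member passed by limma voom, and 0.351% of all genes did as higher. At an unadjusted p under 0.05, 3 members were higher with PABPC4 (HSP90AA1, HSPA4 and HSPA4L), as were 7.78% of all genes. With PABPC1, 2 members were higher at that threshold (HSPA4 and HSPA4L), as were 6.2% of all genes. By limma voom HSPA4 was at 2.11-fold with PABPC4 and 1.86-fold with PABPC1, and HSPA4L at 2.30-fold and 2.62-fold. When the chi-square test was scaled by nuclear-encoded reads, HSP90AA1 was the 1 member called with PABPC4 (2.4-fold, 0.522% of all genes called higher), and none was called with PABPC1 (0.154% of all genes).

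**Figure D3:**
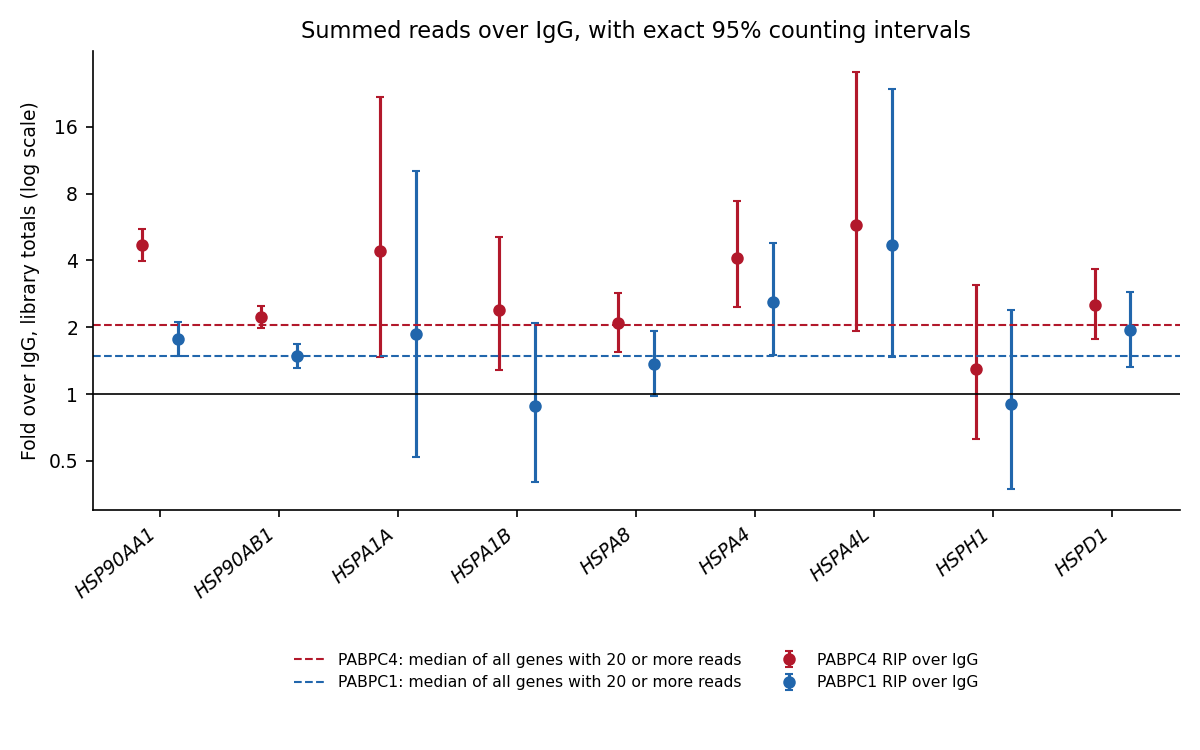
Fold of summed reads over IgG, scaled by library totals (log scale), for PABPC4 RIP (red) and PABPC1 RIP (blue), with exact 95% counting intervals. Dashed lines give the median of all genes with at least 20 reads (2.05 with PABPC4, 1.48 with PABPC1), and HSP90AA1 with PABPC4 lies above its line at 4.69 (3.99 to 5.54). HSPE1, with 0 IgG reads, is not drawn.

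**Figure D4:**
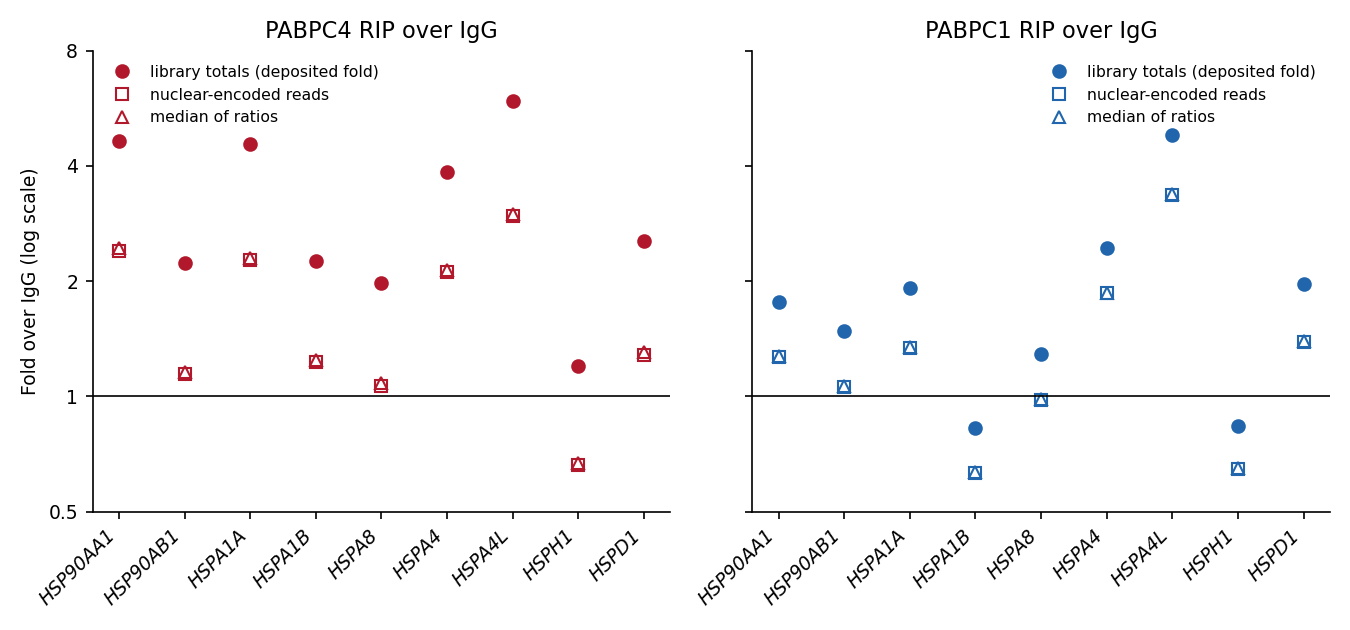
Fold over IgG (log scale) of each member under 3 scalings: library totals as deposited (filled circles), reads of nuclear-encoded genes (squares) and median of ratios (triangles), for PABPC4 RIP (left) and PABPC1 RIP (right). HSP90AA1 with PABPC4 moves to 2.4 by nuclear-encoded reads, against 4.65 as deposited, and HSPA8 and HSPH1 move to or across 1.

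The direct comparison asks which of these mRNAs were more abundant in PABPC4 RIP than in PABPC1 RIP, relative to the median gene. HSP90AA1 was higher in PABPC4 RIP, and HSPA1A and HSPA1B had values nearly as large that did not pass. HSP90AB1, HSPA8, the HSP110 mRNAs and HSPD1 had log2 estimates from -0.19 to 0.18. Some of these had wide intervals, and that of HSP90AB1 lay just above 0. By limma voom with 3 groups and median-of-ratios scaling, HSP90AA1 had a log2 difference of 0.93 (SE 0.09, adjusted p = 1.6e-09), or 1.90-fold (95% interval 1.67 to 2.17). After that scaling its levels were 2460 and 2126 RPM in the PABPC4 libraries, against 1225 and 1180 in the PABPC1 libraries. Among 7987 genes it ranked 23rd by p-value and 416th by size of the positive difference.

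HSP90AA1 was the 1 of 9 fitted members that passed as higher, with 2.2% of all genes higher. No member passed as lower, with 2.3% of all genes lower. At an unadjusted p under 0.05, 3 members were higher (HSP90AA1, HSP90AB1 and HSPA1B), as were 7.81% of all genes. HSPA1B had a log2 difference of 0.92 (SE 0.32, adjusted p = 0.10) and HSPA1A one of 0.75 (SE 0.40, adjusted p = 0.35) by limma voom. The HSPA1A value rests on 14 PABPC1 reads and was 1.17 without PABPC1 library A and 0.31 without library B. Summed over both copies, 278 reads with PABPC4 against 36 with PABPC1 gave a ratio of 2.59 (95% counting interval 1.82 to 3.77). That ratio is scaled by library totals, where HSP90AB1 had a ratio of 1.51 (1.42 to 1.61). The HSPA1B value passed when IgG was left out of the fit (0.90, adjusted p = 0.048) and without PABPC4 library A or B (0.97 each, adjusted p = 0.034 and 0.026). HSP90AB1 had a log2 difference of 0.12 (95% interval 5.4e-05 to 0.24, limma voom adjusted p = 0.30), and it passed without PABPC4 library B (0.22, adjusted p = 0.00041). The intervals were -0.16 to 0.45 for HSPA8, -0.18 to 0.54 for HSPA4, -0.76 to 0.38 for HSPA4L, -0.75 to 0.74 for HSPH1 and -0.39 to 0.19 for HSPD1. The member median was 0.14, against -0.03 over all genes. Scaled by library totals instead, 6 members passed as higher in limma voom (HSP90AA1, HSP90AB1, HSPA1A, HSPA1B, HSPA4 and HSPA8), as did 1115 of all genes, and the values of HSPA4L, HSPH1 and HSPD1 turned positive.

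The HSP90AA1 call depended on having both PABPC1 libraries. Without PABPC1 library A the value was 0.95 (limma voom adjusted p = 0.12) and without library B 0.90 (adjusted p = 0.13), and in these fits 7 and 1 genes of all genes were called higher. It also ended with no filter on low reads (0.96, adjusted p = 0.56), where 179 genes were called higher, against 176 with the filter. It held under the other scalings and without any 1 PABPC4 or IgG library. In scaled levels, both PABPC4 libraries were above both PABPC1 libraries for 5 of 9 members (HSP90AA1, HSP90AB1, HSPA1A, HSPA1B and HSPA4), and for 25.7% of all genes. Nothing in the labels says that replicates were separate cultures, so these p-values measure the spread between libraries, which may be technical.

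**Figure D5:**
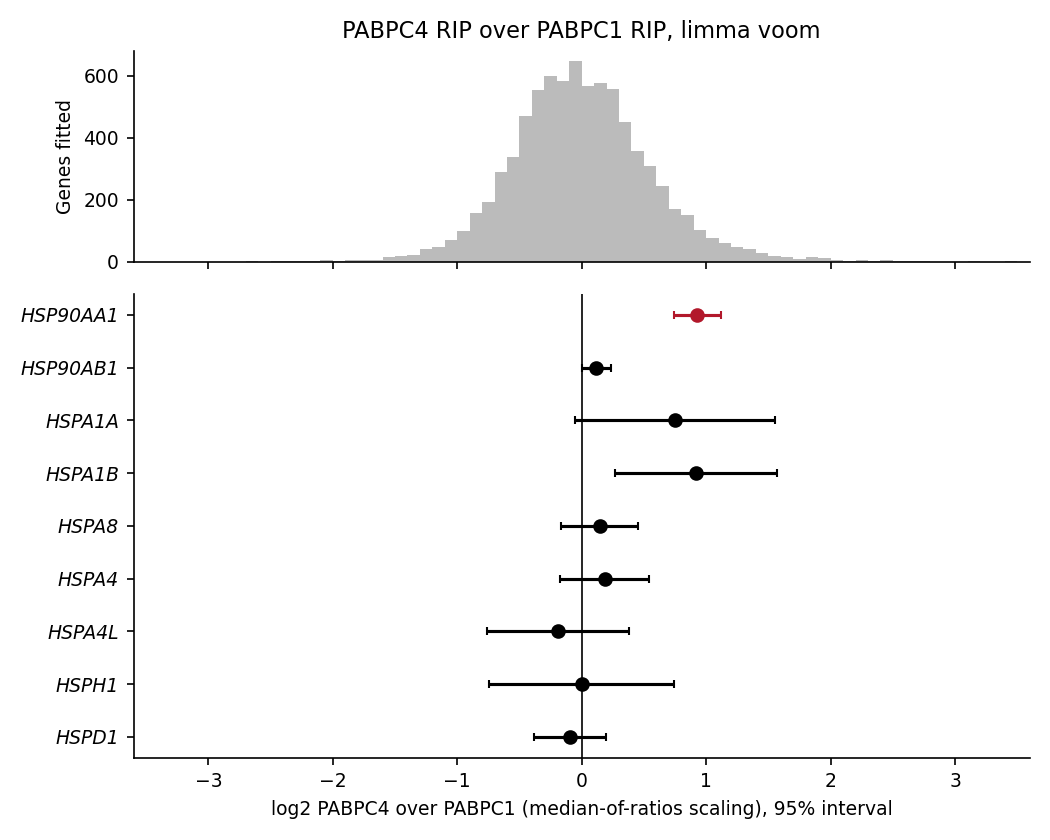
Log2 PABPC4 over PABPC1 by limma voom with median-of-ratios scaling, for all 7987 fitted genes (top, number of genes per bin of values) and for the 9 fitted members with 95% intervals (bottom). HSP90AA1 (red, adjusted p = 1.6e-09) is at 0.93, and HSP90AB1 is at 0.12.

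Of the 11 other HSP70 and HSP90 relatives, the authors' deposited tables list 3 higher with PABPC4 and the same 3 with PABPC1: HSP90B1, HSPA5 and HSPA9. Over all genes 5.54% were listed higher with PABPC4 and 1.34% with PABPC1. HSP90B1, the endoplasmic reticulum HSP90 (GRP94), had 7782 reads with PABPC4 and 1095 with PABPC1, against 281 with IgG. The authors' deposited table gives it 3.78-fold with PABPC4 (adjusted p = 3e-116) and 1.59-fold with PABPC1 (adjusted p = 1.3e-08). HSPA5, the BiP chaperone of that compartment, had 1245 reads with PABPC4 and 172 with PABPC1, against 32 with IgG, and its PABPC1 listing is 2.19-fold (adjusted p = 0.0072, the authors' deposited table). HSPA9, the mitochondrial HSP70 mortalin, was listed there at 4.53-fold with PABPC4 (adjusted p = 6.2e-12) and 2.67-fold with PABPC1 (adjusted p = 0.0019). In the direct comparison HSP90B1 (log2 0.78, SE 0.06, limma voom adjusted p = 1e-12) and HSPA5 (0.80, SE 0.13, adjusted p = 7.9e-05) were higher in PABPC4 RIP, 2 of the 6 fitted. Over all genes 2.2% were. HSPA9 had 0.29 (adjusted p = 0.34). Against IgG by limma voom, all 3 passed with PABPC4 (1.95-fold for HSP90B1, 2.65-fold for HSPA5 and 2.30-fold for HSPA9, adjusted p = 4.3e-08, 0.00045 and 0.019). None of the 3 passed with PABPC1 by limma voom (adjusted p = 0.56, 0.36 and 0.22).

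Of the 26 co-chaperones, 3 were listed higher with PABPC4 and 0 with PABPC1 in the authors' deposited tables. Among genes with 20 or more summed reads, 13.5% and 5.21% were. In the direct comparison 1 was higher and 1 lower of the 24 co-chaperones fitted, beside 2.2% and 2.3% of all genes. CDC37, which brings kinases to HSP90, had 405 and 391 RPM with PABPC4 and 131 and 173 with PABPC1, against 105 and 159 with IgG. Its PABPC4 libraries stood apart, while those of PABPC1 and IgG overlapped. The authors' deposited table lists it 3.01-fold higher with PABPC4 (adjusted p = 3.4e-08), and its direct log2 difference was 0.91 (SE 0.18, limma voom adjusted p = 0.001). STIP1, the HOP protein that links HSP70 to HSP90, passed with PABPC4 (2.94-fold, adjusted p = 7.5e-06), as did ST13, the HSP70-binding HIP (1.95-fold, adjusted p = 6e-04), both from the authors' deposited table. By limma voom none of these 3 passed against IgG with PABPC4 (CDC37 at 1.58-fold, STIP1 at 1.48-fold and ST13 at 0.987-fold, adjusted p = 0.19, 0.33 and 0.98). The direct log2 differences of STIP1 and ST13 were 0.47 and -0.17 (limma voom adjusted p = 0.15 and 0.59). TOMM70, the mitochondrial import receptor that docks HSP90 and HSP70, was lower in PABPC4 RIP than in PABPC1 RIP (log2 -1.04, SE 0.29, limma voom adjusted p = 0.026), from 86 and 42 reads.

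Of the 5 heat shock factor genes, all had a p-value with PABPC4 and 4 with PABPC1. Of the 10 small heat shock protein genes, 8 had one with PABPC4 and 7 with PABPC1. None of these genes was listed higher or lower in the authors' deposited tables. Over all genes, 5.54% and 1.34% were listed higher, and 0.9% and 0.194% lower. Only 3 factor genes and 2 small heat shock protein genes had enough reads for the limma voom fit. HSF1, the main heat shock transcription factor, had 59, 24 and 4 reads with PABPC4, PABPC1 and IgG, and HSPB1 (HSP27) had 65, 16 and 4, so that only large differences could be called at this depth. Of the hepatocyte markers, 5 of 8 were listed higher with PABPC4 and 2 of 8 with PABPC1 (5.54% and 1.34% of all genes). By limma voom APOB was the 1 that passed, at 1.35-fold with PABPC4 (adjusted p = 0.011) and 1.37-fold with PABPC1 (adjusted p = 0.042), and ALB was lower in PABPC4 RIP than in PABPC1 RIP (log2 -0.35, adjusted p = 0.0093). Of the 6 blood markers, 5 were listed lower with PABPC4 and 4 with PABPC1, and all 6 were lower in PABPC4 RIP than in PABPC1 RIP by limma voom. Over all genes 0.9% and 0.194% were listed lower, and 2.3% were lower in the direct comparison.

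The genes most like 3 of the members were found by the distance between their log2 folds over IgG with both antibodies, among 825 genes with at least 20 reads with each antibody. HSP90AA1 was nearest to BDP1 (4.67-fold with PABPC4, 1.71-fold with PABPC1, distance 0.048), PRPF4B (4.67 and 1.69, distance 0.067) and BAZ1B (4.18 and 1.82, distance 0.17). Near HSPA8 were SEPT9 and TF, at distances of 0.023 and 0.026. HSPD1 was nearest to SESTD1, APOB and NPM1, at distances of 0.014 to 0.057. The folds share the same IgG reads within each gene, so these distances describe the libraries and are no test.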

How the data were processed

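RIP-seq was measured in 6 HepG2 libraries: 2 PABPC4 RIP, 2 PABPC1 RIP and 2 IgG. Per the labels' protocols, RNA was pulled down on protein A/G magnetic beads, and libraries were primed with random primers. Per the file headers, each of the 2 tables the authors deposited gives a linear fold (a ratio of RIP over IgG), a p-value and a Benjamini-Hochberg adjusted p, and 0 columns of single libraries. Bowtie2 2.4.1, STAR 2.7.10a, featureCounts 2.0.1, GRCh38 and hg38 are named per the submitters' processing notes, without roles; the strand setting of the counting is not given.

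The deposited p-value was recomputed as a Yates-corrected chi-square test of reads summed over libraries (largest log ratio of recomputed to deposited 8.7e-13), and the deposited fold has 0.005 RPKM added to the IgG mean. Whole reads were solved from these values: of 22607 genes with a read, 22605 have sums and 22114 have reads per library. MT-RNR1 and MT-RNR2 were not solved and were taken as the remainder of each total. On simulated tables, 3684 of 3684 returned sums and 3647 of 3647 sets of library reads were right.

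The comparisons with IgG take the deposited adjusted p under 0.05 as a call. PABPC4 RIP was compared with PABPC1 RIP by limma 3.58.1 (voom) in R 4.3.3, on 7987 genes that reached 10 reads in 2 or more libraries, scaled by the median of ratios, with 3 residual and 34.0 prior degrees of freedom. In a simulation of this fit on 7542 genes, 33 of 100 genes changed 2-fold and 99 of 100 changed 4-fold were called, with 2 false calls. The spread was set by hand, PABPC1 was given the PABPC4 means, and only genes with over 100 PABPC4 reads were changed. These counts therefore leave out the real difference in composition between the RIPs and do not measure error rates in these data. A count test was planned in case the tables held counts; they hold folds and p-values. Counting intervals are 95%, exact, and leave out the spread between libraries. Alternatives were other scalings (library totals, nuclear-encoded reads, median of ratios, TMM), Fisher's exact test, read filters, limma voom, and leaving out each library.

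Promoter sequences and gene positions are from RefSeq (GRCh38.p14), and all 10 members matched by symbol. Named genes are all members, list genes past a threshold (up to 8 per list), and the 3 genes nearest to HSP90AA1, HSPA8 and HSPD1, of which 1 is not reported here. Members and lists were chosen with earlier results of these data known.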

Additional observations from a re-analysis of the deposited data

Results flagged for a closer look

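HSP90AA1 differed between the antibodies: its log2 level in PABPC4 RIP over PABPC1 RIP was 0.93 by limma voom (adjusted p = 1.6e-09), a test of the difference itself. The PABPC4 libraries had 2460 and 2126 RPM after scaling, against 1225 and 1180 in the PABPC1 libraries, so both were higher. The call depended on having both PABPC1 libraries, and it ended with no filter on low reads (0.96, limma voom adjusted p = 0.56). Of the 6 fitted HSP70 and HSP90 relatives, HSP90B1 (0.78) and HSPA5 (0.80) also passed as higher. Antibody and overexpressed protein cannot be told apart here.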

How the results depend on the processing

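No paired analysis was possible because the recovered libraries carry no replicate number. Most calls against IgG changed with the scaling, and mitochondrial rRNA filled over 50% of IgG reads. Whether the RIPs held more mRNA as a whole than IgG was not tested. Members called higher with PABPC4 numbered 1 by nuclear-encoded totals, median of ratios and limma voom (6 as deposited), and with PABPC1 0 by each (4 as deposited). Over all genes the counts were 112, 118 and 135 with PABPC4 (1188) and 27, 27 and 28 with PABPC1 (235). Fisher's exact test and the filter of 20 summed reads, both by library totals, each called 8 members with PABPC4 and 4 with PABPC1. All genes called higher by these numbered 1560 and 1490 with PABPC4, and 310 and 372 with PABPC1. Leaving out 1 library gave 3 to 6 members and 369 to 1187 genes with PABPC4, fewest without IgG library A, and 2 to 4 members and 49 to 253 genes with PABPC1. The members summed to 9647, 7365 and 6425 reads per 1000000 nuclear-encoded reads with PABPC4, PABPC1 and IgG, against 7745, 4224 and 2640 per 1000000 library reads.

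Some folds without a call crossed 1. HSPH1 with PABPC4 was 0.662, 0.671 and 0.634 by nuclear-encoded totals, median of ratios and limma voom, and 0.858 to 2.02 on leaving out a library. HSPA8 with PABPC1 was 0.978, 0.983 and 0.995 by these, and 0.985 to 1.88 on leaving out a library. HSPA1B (0.61 to 1.29) and HSPH1 (0.599 to 1.41) with PABPC1 turned on leaving out an IgG library.

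For PABPC4 over PABPC1, the members called were 2 without IgG in the fit, 6 by library totals, 7 by Fisher's exact test and 0 with no read filter (cause not tested), and 0 to 3 on leaving out a library. All genes called higher numbered 1115 by library totals, 1555 by Fisher's exact test, 179 with no read filter, 222 without IgG in the fit (176 as reported) and 1 to 372 on leaving out a library. Log2 values turned positive by library totals and Fisher's exact test for HSPA4L (0.29 and 0.30), HSPH1 (0.47 and 0.52) and HSPD1 (0.38 and 0.38), and for HSPH1 with no filter (0.028). On leaving out a library, values ran from -0.060 to 0.33 for HSPA8, -0.19 to 0.18 for HSPH1 and -0.20 to 0.0081 for HSPD1. With 227265 IgG reads in all, HSPA1A, HSPA4L, HSPH1 and HSPE1 had under 10 IgG reads each, which limits their folds.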
